A study of Rattus norvegicus with 12 samples.

Results

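The transcripts described here encode carriers and pumps of the blood-brain barrier, the wall formed by the endothelial cells of brain capillaries. They were chosen by name, with earlier results of these data known. The 8 genes listed were the efflux pumps Abcb1a, Abcg2 and Abcc4, the organic anion carrier Slco1a4, and the nutrient carriers Slc2a1, Slc7a5, Slc16a1 and Mfsd2a. Of these, 7 had a row among the 17337 rows of a table of brain read counts, and all 7 passed the filter on low counts that left 12850 genes to test. Slco1a4 had no row under that name. A row named Slco1a2 is given beside the 7, because the RefSeq names for the GRCr8 rat assembly list Slco1a2 as an older name of both Slco1a4 and Slco1a5. Slco1a5 had a row of its own, near 0 in most libraries, which leaves Slco1a4 as the listed gene with that older name and no row. The annotation used for counting is not given, and whether the Slco1a2 row counts Slco1a4 was not tested. Slco1a2 is therefore not counted among the members.

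The libraries came from brain tissue of male Sprague-Dawley rats of postnatal day 60, called middle brain in the study's design. AAV-VEGFC rats had 4 weeks of bile duct ligation (BDL) and received an adeno-associated viral vector carrying VEGFC, a growth factor of lymphatic endothelium, by injection into the cisterna magna, the fluid space behind the cerebellum. AAV-GFP rats had the same ligation and a vector carrying green fluorescent protein in its place. BDL rats had 4 weeks of ligation and no vector, and sham rats are labelled as sham, with no ligation time and no vector given. Ligation of the bile duct causes cholestatic liver disease and is used as a model of hepatic encephalopathy. Each group had 3 libraries, and all of the AAV rats were ligated. The promoter and serotype of the vectors are not given in the labels. Only the design text ties libraries to separate rats, so p-values measure the spread between these libraries.

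Brain capillary endothelium is sealed by tight junctions, so most nutrients enter the brain through carriers in its membranes. Slc2a1 (GLUT1) carries glucose, Slc7a5 (LAT1) large neutral amino acids such as tryptophan and phenylalanine, Slc16a1 (MCT1) lactate and ketone bodies, and Mfsd2a lysophospholipids that bear docosahexaenoic acid. ATP-driven pumps on the blood-facing membrane return drugs and toxins to the blood: Abcb1a encodes a rodent P-glycoprotein, Abcg2 the breast cancer resistance protein, and Abcc4 the multidrug resistance protein MRP4. Several of the nutrient carriers are also made by glia: Slc2a1 by astrocytes and Slc16a1 by astrocytes and oligodendrocytes.

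RefSeq promoter windows of GRCr8, each covering 250 bases before and 50 bases after the annotated gene start, were matched for 6 of the 7 members. The windows of 4 members that rose in all ligated groups against sham, and of Slc16a1, which did not, follow for comparison. Each is read 5′ to 3′ on the gene's strand. That comparison was added after the data had been seen, and most of its ligated libraries carry a vector. In BDL against sham no member had an adjusted p under 0.05. Capitals mark the GC box GGGCGG and the core ACGTG on either strand (CCGCCC and CACGT on the other). The windows are chr5:138002272-138002571 on the plus strand for Slc2a1, chr19:66872363-66872662 on the minus strand for Slc7a5, chr4:26397599-26397898 on the minus strand for Abcb1a, chr4:89075224-89075523 on the plus strand for Abcg2 and chr2:194812410-194812709 on the plus strand for Slc16a1.
Slc2a1: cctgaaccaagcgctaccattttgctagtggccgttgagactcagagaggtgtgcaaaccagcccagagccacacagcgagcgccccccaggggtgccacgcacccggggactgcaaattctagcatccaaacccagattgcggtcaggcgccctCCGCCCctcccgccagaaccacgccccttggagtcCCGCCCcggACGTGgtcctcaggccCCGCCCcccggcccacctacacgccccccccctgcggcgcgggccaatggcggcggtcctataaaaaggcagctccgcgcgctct
Slc7a5: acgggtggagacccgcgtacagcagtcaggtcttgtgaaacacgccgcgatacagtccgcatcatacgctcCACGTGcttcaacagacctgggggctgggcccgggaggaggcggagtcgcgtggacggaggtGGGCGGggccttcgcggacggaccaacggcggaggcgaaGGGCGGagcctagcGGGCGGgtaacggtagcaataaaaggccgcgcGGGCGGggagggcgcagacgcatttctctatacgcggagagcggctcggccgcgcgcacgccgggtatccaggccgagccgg
Abcb1a: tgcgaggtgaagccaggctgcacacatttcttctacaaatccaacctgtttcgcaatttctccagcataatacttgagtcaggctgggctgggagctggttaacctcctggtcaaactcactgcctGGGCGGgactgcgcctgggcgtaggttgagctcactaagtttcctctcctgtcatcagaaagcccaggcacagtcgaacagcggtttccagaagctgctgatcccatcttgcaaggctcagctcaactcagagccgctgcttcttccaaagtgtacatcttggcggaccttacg
Abcg2: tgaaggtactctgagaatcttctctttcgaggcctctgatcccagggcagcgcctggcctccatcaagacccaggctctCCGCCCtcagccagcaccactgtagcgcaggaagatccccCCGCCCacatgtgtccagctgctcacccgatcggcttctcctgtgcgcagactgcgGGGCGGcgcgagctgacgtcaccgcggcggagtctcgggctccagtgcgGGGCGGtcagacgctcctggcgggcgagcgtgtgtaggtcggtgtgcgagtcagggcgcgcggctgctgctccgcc
Slc16a1: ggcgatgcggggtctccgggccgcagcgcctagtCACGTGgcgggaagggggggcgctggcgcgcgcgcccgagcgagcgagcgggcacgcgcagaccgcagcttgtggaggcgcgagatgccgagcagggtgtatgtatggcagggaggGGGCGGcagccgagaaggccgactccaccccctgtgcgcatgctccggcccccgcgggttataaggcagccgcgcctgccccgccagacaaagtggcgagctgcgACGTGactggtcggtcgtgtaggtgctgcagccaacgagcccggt

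The GC box stood in 6 of 6 member windows, against 33.1% of 33469 rat promoter windows of the same length. Those windows were not limited to genes that passed the filter on low counts, as the members did, so the sets are unlike. It occurred 4 times in Slc7a5 and in Abcg2, 3 times in Slc2a1, and once in Abcb1a, Abcc4 and Slc16a1. The ACGTG core stood in 3 of 6 windows, against 19.3% of all, and these were the windows of Slc2a1, Slc7a5 and Slc16a1. In Slc7a5, and at the first site in Slc16a1, it was part of the palindrome CACGTG, which counts as a match on each strand. Slc16a1 had a further ACGTG outside the palindrome, at position 6 after the annotated gene start. Both motifs were chosen after the sequences had been seen, and a match of letters is a description of the window, not a binding site. The core thus stood in windows of transcripts that rose in all ligated groups against sham and in that of Slc16a1, which did not.

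The 12 libraries held 40296297 to 51669067 counts each. On the first principal component of all tested genes, which held 28.2% of the variance, the 6 AAV libraries lay on one side and the 6 others on the other side. The vector, its injection and any batch shared by the AAV libraries cannot be told apart. Some libraries stood apart within their groups: choroid plexus markers, 12 in all, summed to 315 CPM in sham 2 and to 9.97 and 12.1 CPM in sham 1 and sham 3. CPM are read counts scaled to a common library size with edgeR's trimmed mean of M-values. AAV-GFP 1 and AAV-VEGFC 1 had the lowest summed neuron markers of their groups. AAV-VEGFC 1 also had the highest summed astrocyte and oligodendrocyte markers of its group, 8786 and 19277 CPM. Endothelial markers, which mark the cells of the barrier, were found for 12 of 12 genes in the list and none was at 0. The vesicular glutamate transporter Slc17a7 lay between 1249 and 2029 CPM, and Slc17a6, its counterpart in brainstem and thalamus, between 21.1 and 54.4 CPM.

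Without the 3 libraries that stood apart, the count of members that passed the test was 0 for AAV-VEGFC against AAV-GFP, 2 for AAV-VEGFC against BDL, 1 for AAV-GFP against BDL, 0 for BDL against sham and 5 for all ligated groups against sham. With them, the counts were the same except for AAV-GFP against BDL, where it was 0. The count over all genes was higher in each of these fits without the 3 libraries: 1193 against 1 for AAV-VEGFC against AAV-GFP, 3123 against 1276 for AAV-VEGFC against BDL, 3646 against 795 for AAV-GFP against BDL, 209 against 14 for BDL against sham, and 3387 against 1287 for all ligated groups against sham. A gene passed the test when its adjusted p was under 0.05 in edgeR's quasi-likelihood fit of all 12 libraries, with Benjamini-Hochberg adjustment over all 12850 genes. Changes are log2 fold changes of the first named group over the second, with the standard error (SE). In such bulk tissue, fewer cells of a type and less RNA per cell cannot be told apart.

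Slc2a1, the glucose carrier, had the smallest p of the members in both comparisons of a vector group with BDL. It had 245, 216 and 277 CPM in AAV-VEGFC brains, 194, 197 and 212 CPM in AAV-GFP brains, 119, 148 and 170.5 CPM in BDL brains, and 126, 129.5 and 119.7 CPM in sham brains. Every AAV-VEGFC library was above every AAV-GFP library, and every AAV-GFP library above every BDL library, while the BDL and sham libraries overlapped. Against BDL, Slc2a1 rose in AAV-VEGFC brains by 0.75 ± 0.13 on the log2 scale, or 1.69-fold (edgeR adjusted p = 0.00353). In a fit of these groups alone the adjusted p was 0.0617. In AAV-GFP brains it was 0.46 ± 0.12 above BDL and just missed the threshold (edgeR adjusted p = 0.0521), and it passed in 10 of 20 alternative fits. Between AAV-VEGFC and AAV-GFP the difference was 0.29 ± 0.12, with a 95% interval of 0.02 to 0.56 before adjustment and an edgeR adjusted p of 0.948. BDL alone was 0.22 ± 0.12 above sham (edgeR adjusted p = 0.936).

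Slc7a5, the amino acid carrier, had 115, 115 and 96.1 CPM in AAV-VEGFC brains, 107, 97.3 and 103 CPM in AAV-GFP brains, 86.0, 92.8 and 83.3 CPM in BDL brains, and 79.3, 81.8 and 75.3 CPM in sham brains. The AAV-VEGFC and AAV-GFP libraries overlapped, both stood above all BDL libraries, and all BDL libraries stood above all sham libraries. Against BDL it rose in AAV-VEGFC brains by 0.31 ± 0.08, or 1.24-fold (edgeR adjusted p = 0.0362). That call ended in 9 of 20 alternative fits, among them each fit without 1 sham or 1 BDL library, in which the log2 change stayed within 0.27 to 0.40. In AAV-GFP brains Slc7a5 was 0.23 ± 0.08 above BDL (edgeR adjusted p = 0.139), and in BDL brains 0.15 ± 0.08 above sham (edgeR adjusted p = 0.934). Its heavy-chain partner at the membrane, Slc3a2, chosen after its values were seen, differed by 0.21 ± 0.09 between AAV-VEGFC and BDL (edgeR adjusted p = 0.137).

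**Figure D1:**
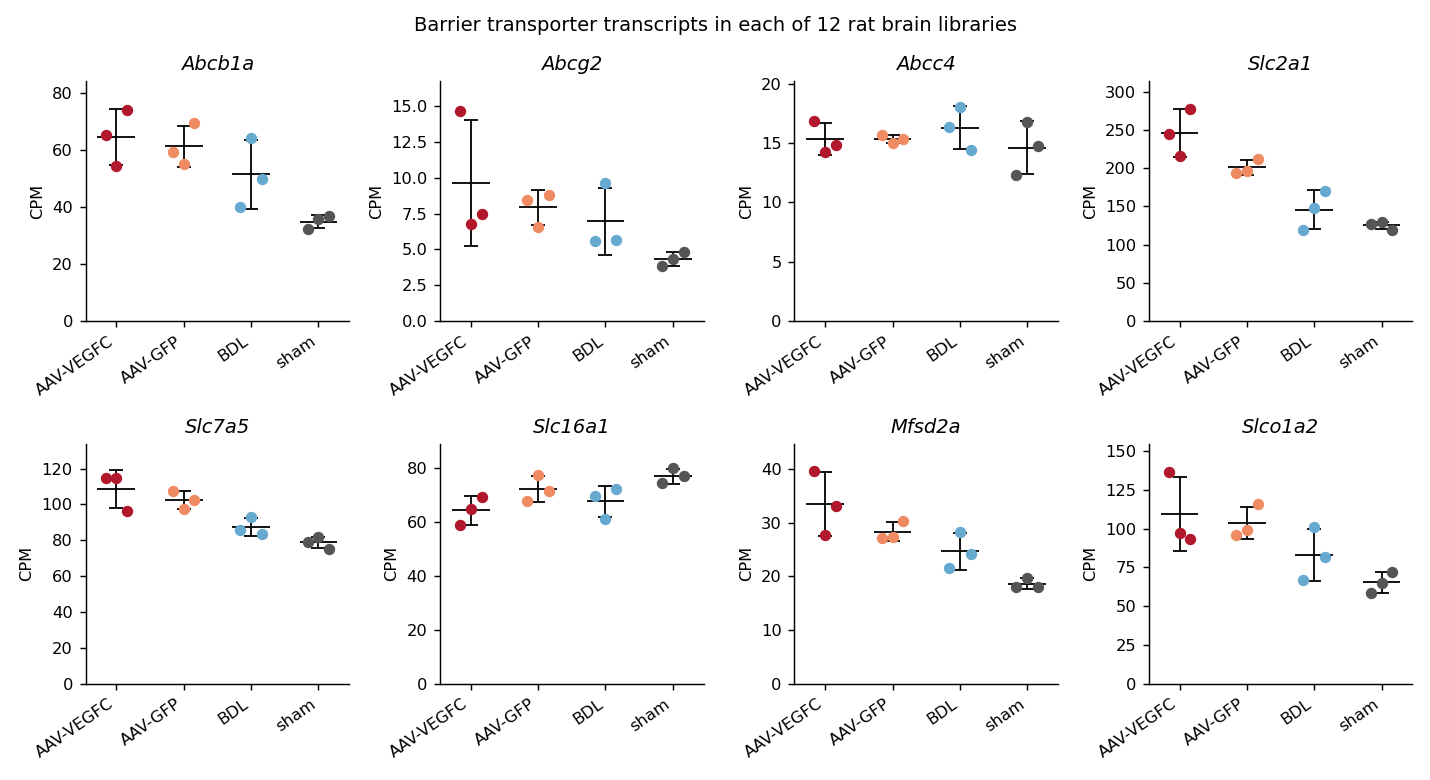
CPM (vertical axis) of each of the 7 members found and of the Slco1a2 row in the 12 libraries, by group; each point is 1 library, the horizontal bar is the group mean and the whiskers are ± 1 SD (n = 3). Abcb1a, Abcg2, Slc7a5 and Mfsd2a are lowest in the 3 sham libraries, Abcc4 overlaps in all groups, and Slc16a1 is highest on average in sham (76.9 CPM).

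Mfsd2a, which also restrains vesicular transport across the endothelium in mice, had 39.6, 27.7 and 33.1 CPM in AAV-VEGFC brains, 27.2, 27.3 and 30.3 CPM in AAV-GFP brains, 21.6, 28.3 and 24.1 CPM in BDL brains, and 18.02, 19.8 and 18.1 CPM in sham brains. All 9 ligated libraries stood above the 3 sham libraries, and the ligated groups overlapped with their neighbours. The difference of AAV-VEGFC from BDL was 0.44 ± 0.13 (edgeR adjusted p = 0.0577), and it passed in 3 of 20 alternative fits. Without AAV-VEGFC 1 that difference was 0.30. The difference of BDL from sham was 0.41 ± 0.13 (edgeR adjusted p = 0.596).

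Slc16a1, the lactate carrier, did not follow the other nutrient carriers. It had 58.7, 64.6 and 69.2 CPM in AAV-VEGFC brains, 67.7, 77.1 and 71.4 CPM in AAV-GFP brains, 69.5, 61.1 and 72.0 CPM in BDL brains, and 74.2, 79.7 and 76.8 CPM in sham brains. All BDL and all AAV-VEGFC libraries lay below the sham libraries, and AAV-GFP overlapped with sham. The difference of BDL from sham was -0.19 ± 0.09 (edgeR adjusted p = 0.855), and no comparison passed in edgeR. Its ancillary protein Bsg, chosen after its values were seen, was 0.35 ± 0.12 higher in AAV-VEGFC than in BDL brains (edgeR adjusted p = 0.0813).

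Among the efflux pumps, Abcb1a had 65.3, 54.3 and 73.9 CPM in AAV-VEGFC brains, 59.1, 55.1 and 69.3 CPM in AAV-GFP brains, 40.0, 64.1 and 49.9 CPM in BDL brains, and 32.2, 35.7 and 36.6 CPM in sham brains. Every ligated library stood above every sham library, and the 3 ligated groups overlapped. The BDL libraries averaged 51.4 ± 12.1 CPM and the sham libraries 34.9 ± 2.31 CPM (SD, n = 3 each), a log2 difference of 0.56 ± 0.16 (edgeR adjusted p = 0.479). It was the member with the smallest p in that comparison, rank 154 of 12850 genes. When 1 library was left out, this difference ranged from 0.37 to 0.71. Its close copy Abcb1b, the other rodent P-glycoprotein gene, was uneven within a group, with 13 reads in AAV-GFP 1 and 309 and 316 reads in AAV-GFP 2 and AAV-GFP 3. Reads that fit both copies can be split between them, and with the reads of both summed the BDL difference was 0.54 and did not pass.

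Abcg2 had 14.7, 6.74 and 7.47 CPM in AAV-VEGFC brains, 8.47, 6.53 and 8.78 CPM in AAV-GFP brains, 5.55, 9.63 and 5.69 CPM in BDL brains, and 3.81, 4.34 and 4.78 CPM in sham brains. One AAV-VEGFC library and one BDL library stood well above the rest of their groups, and all ligated libraries stood above sham. The difference of BDL from sham was 0.69 ± 0.30 (edgeR adjusted p = 0.82), and that of AAV-VEGFC from BDL was 0.47 ± 0.30 (edgeR adjusted p = 0.326). The last value rests on AAV-VEGFC 1, and without that library the difference was 0.03. The difference of BDL from sham ranged from 0.38 to 0.83 when 1 library was left out.

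Abcc4 had 16.8, 14.2 and 14.9 CPM in AAV-VEGFC brains, 15.6, 15.0 and 15.3 CPM in AAV-GFP brains, 16.4, 18.04 and 14.4 CPM in BDL brains, and 12.3, 16.7 and 14.7 CPM in sham brains. All 4 groups overlapped. Its difference was between -0.09 and 0.16 in the comparisons of single groups, and the 95% interval of BDL against sham ran from -0.11 to 0.43.

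The row named Slco1a2 had 137, 97.3 and 93.6 CPM in AAV-VEGFC brains, 96.1, 99.2 and 116 CPM in AAV-GFP brains, 66.9, 101 and 81.3 CPM in BDL brains, and 58.6, 65.2 and 72.0 CPM in sham brains. Both vector groups lay above sham without overlap, and BDL overlapped with its neighbours. Its differences were 0.40 ± 0.17 for AAV-VEGFC against BDL (edgeR adjusted p = 0.151), 0.32 ± 0.17 for AAV-GFP against BDL (edgeR adjusted p = 0.324) and 0.35 ± 0.17 for BDL against sham (edgeR adjusted p = 0.899). Without AAV-VEGFC 1 the first of these was 0.20.

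Read over the members, AAV-VEGFC against AAV-GFP gave 0 members that passed in edgeR, DESeq2 and limma voom, and 1 member (Slc2a1) with an unadjusted p under 0.05, against 4.37% of all genes. Of all 12850 genes, 0.00778% passed. Groups did not overlap for 1 member, higher, against 3.29% of all genes. The median log2 change was 0.08 over the members and 0.01 over all tested genes.

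AAV-VEGFC against BDL gave 2 members that passed of 7 tested, Slc2a1 and Slc7a5, both higher, against 9.93% of all genes in either direction and 2.91% of all genes higher. Groups did not overlap for the same 2 members, against 14.6% of all genes higher. The median log2 change was 0.33 over the members and 0.0045 over all tested genes.

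AAV-GFP against BDL gave 0 members that passed in edgeR, against 6.19% of all genes. Slc2a1 and Slc7a5 had an unadjusted p under 0.05, against 20.7% of all genes. DESeq2 gave 1 member and limma voom 3, Slc2a1 among them in both. Groups did not overlap for 2 members, higher, against 18.2% of all genes higher. The median log2 change was 0.20 over the members. This comparison and the one before it share the BDL libraries, so they are not independent.

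BDL against sham gave 0 members that passed in edgeR, DESeq2 and limma voom, against 0.109% of all genes. Abcb1a, Mfsd2a and Abcg2 had an unadjusted p under 0.05, against 5.9% of all genes. Groups did not overlap for 4 members, higher (Abcb1a, Abcg2, Slc7a5 and Mfsd2a), against 12.6% of all genes, and for 1 member, lower (Slc16a1), against 12.4% of all genes. The median log2 change was 0.22 over the members and 0.01 over all tested genes.

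**Figure D2:**
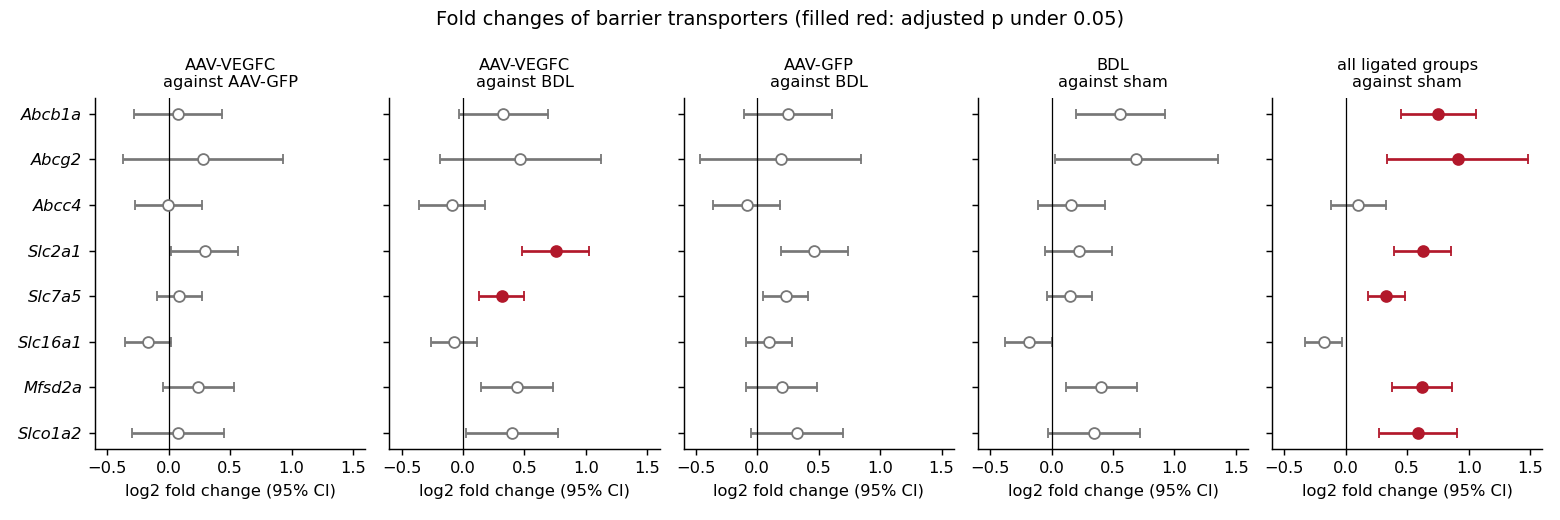
Log2 fold change (horizontal axis) of each member and of the Slco1a2 row in 5 comparisons, 1 panel each; points are edgeR estimates, bars are 95% intervals before adjustment, and filled red points had an adjusted p under 0.05. Slc2a1 and Slc7a5 passed for AAV-VEGFC against BDL, and 5 members passed for all ligated groups against sham.

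A comparison of the mean of the 3 ligated groups with sham was added after the data had been seen, and it shares its libraries with the comparisons above. In it 5 of 7 members rose, against 10% of all genes in either direction and 3.02% of all genes higher. The members were chosen with earlier results of these data known, so this count is a description. Most endothelial markers were also higher in this comparison, and the members relative to them are described below. All 9 ligated libraries stood above all 3 sham libraries for 4 members (Abcb1a, Abcg2, Slc7a5 and Mfsd2a), against 5.05% of all genes. Slc2a1 rose by 0.63 ± 0.11 (edgeR adjusted p = 0.00443) and Mfsd2a by 0.62 ± 0.11 (edgeR adjusted p = 0.00615), which are 1.54-fold and 1.53-fold. Both passed in all 19 alternative fits. Abcb1a rose by 0.75 ± 0.14, or 1.69-fold (edgeR adjusted p = 0.00703), and Slc7a5 by 0.33 ± 0.07, or 1.26-fold (edgeR adjusted p = 0.0127).

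Abcg2 rose by 0.91 ± 0.26, or 1.88-fold (edgeR adjusted p = 0.0488), a call that was kept in 8 of 19 alternative fits. The Slco1a2 row rose by 0.59 ± 0.14 (edgeR adjusted p = 0.0265), a call kept in 15 of 19 alternative fits and lost without each sham library in turn (adjusted p up to 0.155). Abcc4 differed by 0.10 ± 0.10 (edgeR adjusted p = 0.548) and Slc16a1 by -0.18 ± 0.07 (edgeR adjusted p = 0.123). Without sham 1, the call ended for Abcb1a (edgeR adjusted p = 0.0617), and for Slc7a5 it ended without sham 1 or sham 3. The count of members that passed was 2 without sham 1 and 3 without sham 3, and the count over all genes also fell in these fits, to 378 without sham 1 and 463 without sham 3, against 1287. Of the 9 ligated libraries 6 carry a vector, and with BDL alone no member passed.

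Most markers of endothelium were higher where the members were. The summed level of the 12 endothelial markers was 542 to 591 CPM in AAV-VEGFC libraries, 514 to 560 CPM in AAV-GFP libraries, 331 to 440 CPM in BDL libraries and 304 to 349 CPM in sham libraries. Of these markers, 6 of 12 rose in AAV-VEGFC against BDL, 5 of 12 in AAV-GFP against BDL, 0 of 12 in AAV-VEGFC against AAV-GFP and in BDL against sham, and 7 of 12 in all ligated groups against sham. Over all genes, 2.91% rose in AAV-VEGFC against BDL, 0.988% in AAV-GFP against BDL and 3.02% in all ligated groups against sham. Cldn5, the main claudin of the brain endothelial tight junction, rose by 1.05 ± 0.13 in AAV-VEGFC against BDL (edgeR adjusted p = 0.000815) and by 0.91 ± 0.13 in AAV-GFP against BDL (edgeR adjusted p = 0.0021). Not all of them were higher. Kdr, a receptor for VEGF, had 8.47, 13.5 and 14.0 CPM in AAV-VEGFC brains, 14.0, 13.7 and 12.6 CPM in AAV-GFP brains, 11.4, 11.7 and 10.9 CPM in BDL brains, and 14.3, 15.5 and 17.1 CPM in sham brains. It was lower in all 9 ligated libraries than in the sham libraries, without passing (-0.35 ± 0.13 in all ligated groups against sham, edgeR adjusted p = 0.105). Eng, a co-receptor for TGF-beta ligands, was below sham in all BDL libraries (-0.43 ± 0.13, edgeR adjusted p = 0.519). In BDL against sham, groups did not overlap for 3 higher and 2 lower markers of 12, against 12.6% of all genes higher and 12.4% lower. The part of endothelial content in the members' levels was not tested.

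Members were also set against the mean log2 CPM of these 12 markers in the same library. On that scale Slc2a1 differed by -0.002 between AAV-GFP and BDL and by 0.27 between AAV-VEGFC and BDL, where the groups overlapped (exact two-sided permutation p = 0.2). These values depend on the markers: against Cldn5, Pecam1 and Cdh5 alone they were -0.17 and 0.07. Between AAV-VEGFC and AAV-GFP, Slc2a1 differed by 0.27, without overlap, and by 0.24 against those 3 markers. Between AAV-GFP and BDL, Slc7a5 differed by -0.25, Mfsd2a by -0.27 and Abcc4 by -0.56, and against the 3 markers by -0.41, -0.44 and -0.72. Between AAV-VEGFC and BDL, Abcc4 differed by -0.58 and Slc16a1 by -0.57. These differences concern the members relative to the markers, which were themselves 0.49 higher in AAV-VEGFC and 0.48 higher in AAV-GFP than in BDL brains.

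Between BDL and sham the marker mean, which averages markers that went both ways, differed by 0.12. Relative to it, Abcb1a was 0.42 higher, Abcg2 0.53 higher and Mfsd2a 0.28 higher in BDL, with groups that did not overlap, and Slc16a1 differed by -0.31. Against Cldn5, Pecam1 and Cdh5 alone these differences were 0.31, 0.41, 0.17 and -0.42. Slc2a1, Abcc4 and Slc7a5 differed from the marker mean by 0.09, 0.05 and 0.03, with groups that overlapped. An exact two-sided permutation test of 3 libraries against 3 cannot go below p = 0.1, and Abcb1a, Abcg2, Mfsd2a and Slc16a1 gave that value. Between all ligated groups and sham the marker mean differed by 0.44. Relative to it, Abcb1a was 0.30 higher, without overlap. Abcg2, Slc2a1, Mfsd2a and Slc7a5 differed by 0.42, 0.18, 0.17 and -0.11, with groups that overlapped. Against Cldn5, Pecam1 and Cdh5 alone, Abcb1a differed by 0.07, Abcg2 by 0.19, Slc2a1 by -0.05, Mfsd2a by -0.06 and Slc7a5 by -0.34.

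**Figure D3:**
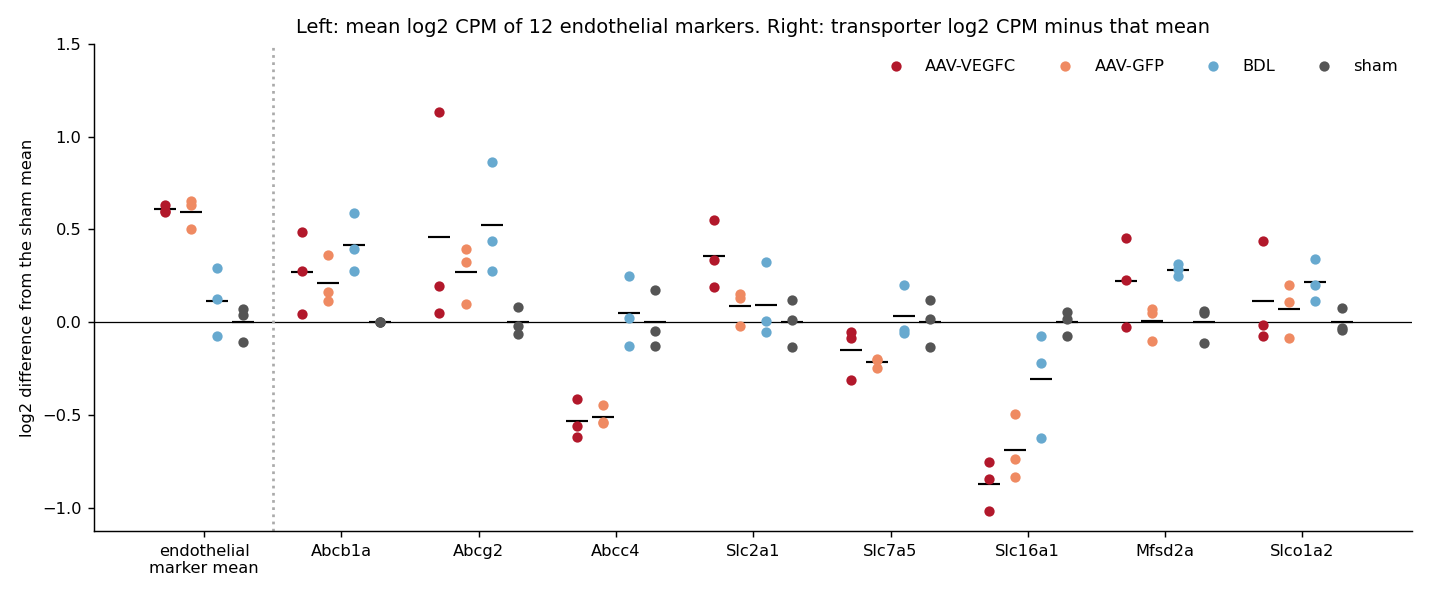
Left of the dotted line, the mean log2 CPM of 12 endothelial markers; right of it, each transporter's log2 CPM minus that mean. Each point is 1 library as a log2 difference from the sham mean, and bars are group means. The marker mean is higher in both vector groups, Abcb1a relative to it is highest on average in BDL, and Abcc4 and Slc16a1 relative to it are lowest in the vector groups.

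Other cell types also moved with the groups. The summed level of the 7 red-cell markers found was 948 to 1321 CPM in AAV-VEGFC libraries, 817 to 907 CPM in AAV-GFP libraries, 433 to 864 CPM in BDL libraries and 117 to 158 CPM in sham libraries, and 5 of 7 rose in BDL against sham. Over all genes, 0.0934% rose in BDL against sham. BDL 2, the BDL library with the most Abcb1a, Abcg2 and Mfsd2a, also had the most red-cell and endothelial marker reads of its group. Pericyte and smooth muscle markers summed to 214 to 247 CPM in AAV-VEGFC libraries, 208 to 272 CPM in AAV-GFP libraries, 163 to 216 CPM in BDL libraries and 155 to 183 CPM in sham libraries, and 3 of 12 rose in AAV-GFP against BDL, against 0.988% of all genes. Of the markers of choroid plexus, astrocytes, neurons, oligodendrocytes, meninges and microglia, 0 passed in the 4 comparisons of single groups. Microglia markers were also higher where the members were, and their sum was 462 to 757 CPM in AAV-VEGFC libraries, 506 to 760 CPM in AAV-GFP libraries, 408 to 492 CPM in BDL libraries and 379 to 436 CPM in sham libraries. In all ligated groups against sham 1 of 10 microglia markers rose, against 3.02% of all genes. All 10 had a positive change, against 51.1% of all genes, and their median log2 change was 0.48. Rn18s, a ribosomal RNA chosen after its values were seen, lay between 7616 and 11883 CPM in AAV-VEGFC, 4245 and 11510 CPM in AAV-GFP, 1786 and 2989 CPM in BDL and 1357 and 1671 CPM in sham libraries. The part of each in the members' levels was not tested.

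Beside the members, 34 other nutrient carriers gave calls in both directions. In AAV-VEGFC against BDL 1 rose and 2 fell, against 9.93% of all genes called. In AAV-GFP against BDL 0 rose and 2 fell, against 6.19% of all genes, and in BDL against sham 0 passed. These shares are near those of all genes. In all ligated groups against sham 2 rose and 3 fell, against 10% of all genes. Slc38a5, a glutamine carrier, had 4.97, 6.33 and 3.93 CPM in AAV-VEGFC brains, 5.26, 5.82 and 4.27 CPM in AAV-GFP brains, 3.81, 3.87 and 4.50 CPM in BDL brains, and 1.80, 1.90 and 1.43 CPM in sham brains. Every ligated library was above every sham library, and the gene rose by 1.46 ± 0.18 in all ligated groups against sham (edgeR adjusted p = 0.000748). In BDL against sham it was 1.25 ± 0.21 higher (edgeR adjusted p = 0.0644). There it passed in 7 of 20 alternative fits, among them the DESeq2 test, limma voom and the compared groups alone.

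Slc19a3, a thiamine carrier, rose by 0.83 ± 0.23 in AAV-VEGFC against BDL (edgeR adjusted p = 0.0441), a call kept in 8 of 20 alternative fits (adjusted p up to 0.168), and by 1.13 ± 0.20 in all ligated groups against sham (edgeR adjusted p = 0.00601). The other thiamine carrier, Slc19a2, went the other way, and fell by 0.42 ± 0.08 in all ligated groups against sham (edgeR adjusted p = 0.00744, kept in 18 of 19 alternative fits). Slc7a6, a carrier of cationic and neutral amino acids, fell by 0.48 ± 0.08 in AAV-GFP against BDL (edgeR adjusted p = 0.0062) and by 0.36 ± 0.08 in AAV-VEGFC against BDL (edgeR adjusted p = 0.0203, kept in 17 of 20 alternative fits). Slc5a3, the myo-inositol carrier, was chosen after its values were seen and fell by 0.88 ± 0.17 in all ligated groups against sham (edgeR adjusted p = 0.00808, kept in 17 of 19 alternative fits).

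Of 9 other efflux pumps tested, 1 passed in AAV-VEGFC against BDL, in AAV-GFP against BDL and in all ligated groups against sham, and it fell. Over all genes, 9.93%, 6.19% and 10% passed in these comparisons in either direction. Abcc1, the multidrug resistance protein MRP1, had 13.0, 17.9 and 13.3 CPM in AAV-VEGFC brains, 15.8, 16.9 and 17.1 CPM in AAV-GFP brains, 30.5, 26.6 and 30.7 CPM in BDL brains, and 29.5, 27.9 and 28.3 CPM in sham brains. Both vector groups lay far below BDL and sham, which overlapped. It fell by 0.99 ± 0.12 in AAV-VEGFC against BDL (edgeR adjusted p = 0.00058) and by 0.82 ± 0.12 in AAV-GFP against BDL (edgeR adjusted p = 0.00183). Of 9 organic anion and thyroid hormone carriers tested, 2 rose in all ligated groups against sham, the Slco1a2 row and Slco2b1 (0.43 ± 0.11, edgeR adjusted p = 0.0334, kept in 12 of 19 alternative fits, adjusted p up to 0.174), and 0 passed in the 4 other comparisons. In all ligated groups against sham, 3.02% of all genes rose.

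Receptors and caveolae gave 1 rise and 2 falls of 9 tested genes in AAV-VEGFC against BDL and in AAV-GFP against BDL, and 0 in BDL against sham. Over all genes, 9.93%, 6.19% and 0.109% passed in these comparisons in either direction. Plvap, a protein of endothelial fenestrae and caveolae, rose by 1.03 ± 0.21 in AAV-VEGFC against BDL (edgeR adjusted p = 0.0115) and by 1.05 ± 0.21 in AAV-GFP against BDL (edgeR adjusted p = 0.0132), and was the only gene of this list that rose in them. These calls were kept in 19 and 17 of 20 alternative fits. The BDL libraries were themselves low in Plvap, with 1.43, 1.23 and 1.21 CPM against 1.82, 1.81 and 2.22 CPM in sham libraries. In all ligated groups against sham Plvap differed by 0.10 and passed in 0 of 19 alternative fits. Lrp1, a receptor that carries amyloid beta and lipoproteins, fell by 0.67 ± 0.12 in AAV-VEGFC against BDL (edgeR adjusted p = 0.00491) and by 0.54 ± 0.12 in AAV-GFP against BDL (edgeR adjusted p = 0.0211). The second of these calls was lost in 6 of 20 alternative fits, among them those without each BDL library in turn and without AAV-GFP 2 or AAV-GFP 3 (adjusted p up to 0.0965). Of 19 tested regulators of the barrier (Wnt signalling and xenobiotic sensing), 3 fell in AAV-VEGFC against BDL and 2 in AAV-GFP against BDL, against 7.02% and 5.2% of all genes lower. Reck, a co-receptor for Wnt7 ligands, fell by 0.72 ± 0.09 and by 0.51 ± 0.09 in these comparisons (edgeR adjusted p = 0.000621 and 0.00518). Arnt, a partner of the aryl hydrocarbon receptor, fell by 0.77 ± 0.14 in both (edgeR adjusted p = 0.00529 and 0.00666), and the call against BDL in AAV-VEGFC was kept in 19 of 20 alternative fits.

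**Figure D4:**
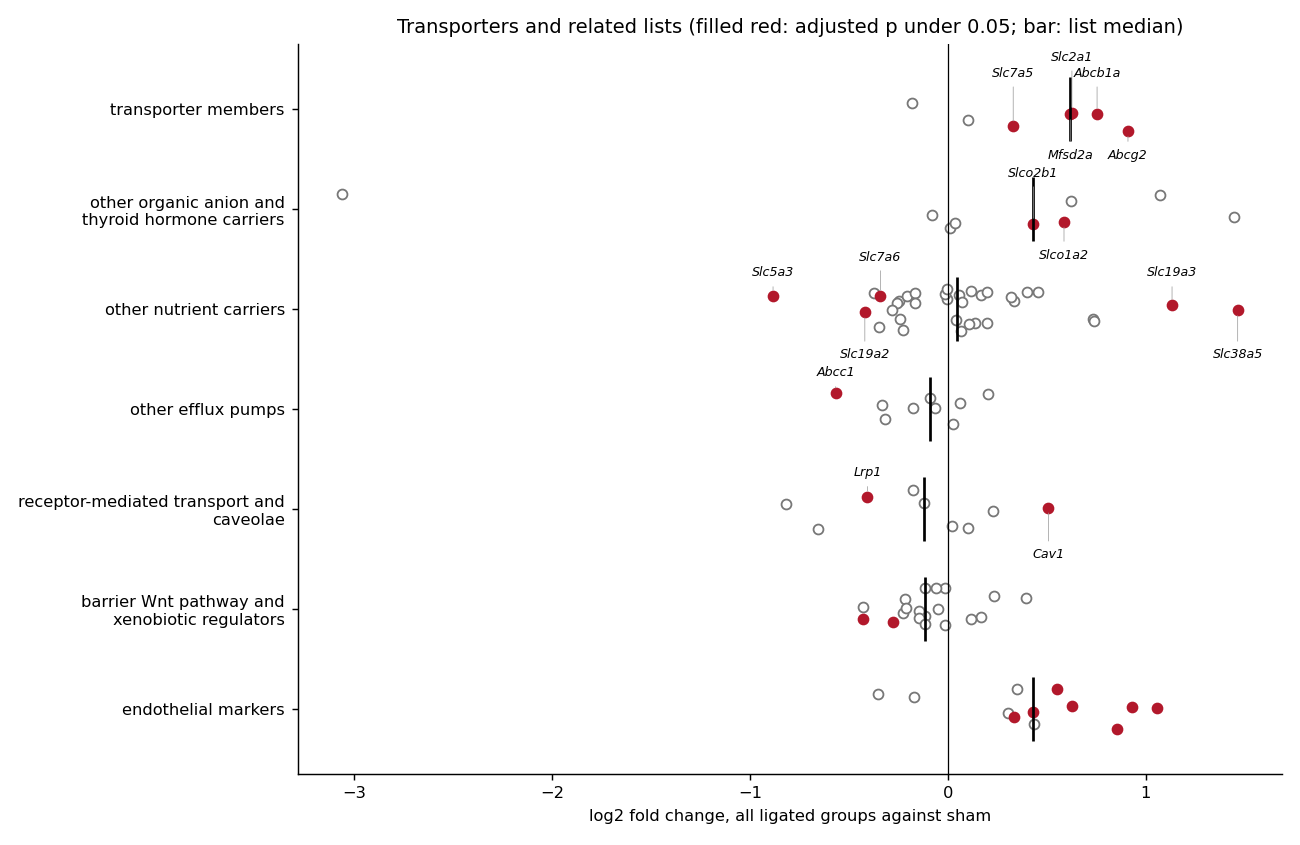
Log2 fold change in all ligated groups against sham (horizontal axis) of the members and of the genes of 6 other lists; each point is 1 gene, filled red points had an adjusted p under 0.05, and bars are list medians. The members' median is 0.62, that of the endothelial markers 0.43, of other nutrient carriers 0.05 and of other efflux pumps -0.09.

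The members followed each other to different degrees over the 12 libraries. Pearson's r of log2 CPM was 0.93 between Abcb1a and Mfsd2a and 0.92 between Abcg2 and Mfsd2a, and it was 0.76 and 0.86 after each group's mean was taken off. Slc16a1 ran against Abcg2 (-0.82, and -0.79 without group means). AAV-VEGFC 1 had the highest Abcg2 and Mfsd2a and the lowest Slc16a1 of the 12 libraries. These correlations were not computed without it. Abcc4 ran with Slc2a1 at 0.03. Among 11546 genes with a mean of at least 1 CPM, the gene most like Mfsd2a was Fmo2 (r = 0.99) and the gene most like Slc7a5 was Tmem55b (0.98). The genes most like Abcg2, Slc16a1 and Abcc4 were Heph (0.96), Rgs8 (0.88) and Tcf7l1 (0.83). The gene most like Slc2a1 was Uaca (0.97), the gene most like Abcb1a was Gpd1 (0.97), and the gene most like the Slco1a2 row was Cav1 (0.97). These values describe 12 libraries that fall into 4 groups and share depth and tissue makeup, so they carry no p.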

How the data were processed

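RNA of brain tissue was sequenced in 12 libraries, and the sample titles give 4 groups of 3. The files the authors deposited hold raw counts of reads for each gene symbol, with no normalization. Per the labels' protocols, RNA came from Trizol extraction and libraries from a TruSeq kit. The submitters' processing notes name FastQC, Trimmomatic 0.36, HISAT2, featureCounts and the rn6 build. The counting settings, annotation and strandedness are not given in the sources, so reads of overlapping or antisense genes cannot be told apart. In the table, 26 rows are named as dates and stand for genes not named here, and the sample columns left unused numbered 0. Gene lengths were not used, so levels of different genes are not compared.

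From the deposited counts, edgeR 4.0.16 in R 4.3.3 computed TMM factors, filtered genes with filterByExpr and fitted all 12 libraries in 1 quasi-likelihood model by group. SE came from the change and the F statistic. CPM was computed on TMM-scaled library sizes, and log2 CPM used a prior count of 2. Within groups, libraries differed beyond sampling noise (chi-square per degree of freedom 11.6 to 227). The test was checked on simulated counts with known changes. No simulated library stood apart from its group, so the check does not cover such libraries. Promoters came from RefSeq GRCr8. Figures used matplotlib 3.10.9 under Python 3.11.15.

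The members and lists were chosen with earlier results of these data known. The rule for names took the members, from each other list the 2 genes with the smallest p per comparison, and for each member the 3 genes with the highest r. The text names all members and part of the rest, and genes outside this rule are said to be so. Alternatives were DESeq2 1.42.0 size factors and test, limma 3.58.1 voom, other filters, the compared groups alone, a replicate block, a shorter endothelial list, an adjusted p under 0.1, and leaving out libraries. The comparison of all ligated groups with sham, and the summed Abcb1a and Abcb1b reads, were added after seeing the data.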

Additional observations from a re-analysis of the deposited data

How the results depend on the processing

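For BDL against sham and for AAV-VEGFC against AAV-GFP the count of members that passed was 0 in every alternative run. For AAV-VEGFC against BDL it was 2, against 3 with the DESeq2 test and at an adjusted p under 0.1, 0 in a fit of the compared groups alone and 1 to 2 when 1 library was left out. For AAV-GFP against BDL it was 0, against 1 with DESeq2 size factors, 1 with the DESeq2 test, 3 with limma voom, 1 with a filter of at least 1 CPM in 3 libraries, 2 in a fit of the compared groups alone, 1 without sham 2, AAV-GFP 1 and AAV-VEGFC 1, 1 at an adjusted p under 0.1, and 0 to 2 when 1 library was left out. For all ligated groups against sham it was 5, against 6 with limma voom, 4 with no filter on low counts, and 2 to 5 when 1 library was left out. No called value of a member changed its sign. The cause of these moves was not tested.

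Same-numbered libraries deviated from their group means with correlations of -0.13 to 0.07. Correlations over all genes cannot show whether such libraries shared a batch or a dissection, and this was not tested. With the replicate number as a block, the members that passed numbered 0 for AAV-VEGFC against AAV-GFP, 2 for AAV-VEGFC against BDL, 0 for AAV-GFP against BDL, 0 for BDL against sham and 4 for all ligated groups against sham.

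Counts over all tested genes moved more. For all tested genes called, BDL against sham, the count was 14, against 108 with the DESeq2 test, 347 with limma voom and 332 with the compared groups alone. For all tested genes called, AAV-GFP against BDL, it was 795, against 1485, 4687 and 2023. For all tested genes called, AAV-VEGFC against BDL, it was 1276, against 2362, 2488 and 330. For all tested genes called, AAV-VEGFC against AAV-GFP, it was 1, against 10 with the DESeq2 test, 1 with limma voom and 1193 without sham 2, AAV-GFP 1 and AAV-VEGFC 1. For all tested genes called, all ligated groups against sham, it was 1287, against 2194 with the DESeq2 test and 4506 with limma voom. When 1 library was left out they ranged from 0 to 22 for AAV-VEGFC against AAV-GFP, 586 to 2284 for AAV-VEGFC against BDL, 386 to 2945 for AAV-GFP against BDL, 12 to 74 for BDL against sham and 378 to 3199 for all ligated groups against sham. At an adjusted p under 0.1 they were 2353 for AAV-VEGFC against BDL, 1302 for AAV-GFP against BDL, 23 for BDL against sham and 2157 for all ligated groups against sham. Abcg2, with 3.81 to 14.7 CPM, had the widest interval of the members in all 5 comparisons.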
